A study of Mus musculus with 4 samples.

Results

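Esr1, Pgr and Greb1 encode the estrogen receptor alpha and a pair of genes known as its targets, and they are described here in cultured mouse aortic endothelial cells with and without human catalase. They are 3 of the 398 probe sets in the authors' deposited table of differing genes and 3 of the 35557 transcript clusters (groups of probes along a gene, each summarised as 1 value) in the deposited value table. Their rows were taken by gene symbol and joined to the value table by probe set identifier, which gave 1 probe set per gene (Esr1 10367600, Pgr 10583179, Greb1 10399505). The hcatTg group was 2 arrays of mouse aortic endothelial cells carrying a human catalase transgene, and the WT group was 2 arrays of wild type cells. Both were labelled C57BL/6J. Human catalase breaks down hydrogen peroxide, and the design text describes the hcatTg cells as overexpressing it. Catalase transcripts themselves were not analysed here, so the transgene was not checked. Cells of both genotypes were grown to 80% confluence, kept in serum-free medium for 12 h and then given 10% fetal bovine serum for 12 h. The array was the Affymetrix Mouse Gene 1.0 ST type. The sources used here do not give the promoter that drives the transgene, the age of the mice or the animals behind each RNA sample. The spread between arrays may therefore be technical.

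The estrogen receptor alpha is a nuclear receptor. When it binds estradiol it pairs with itself and attaches to estrogen response elements, which are palindromes of GGTCA, and it recruits coactivators to nearby genes. The progesterone receptor gene Pgr is a classic target of estrogen in the uterus and the breast, and its product is itself a hormone-bound transcription factor. Greb1, named as a gene regulated by estrogen in breast cancer, is induced by estrogen in human breast cancer cells, where its protein binds the receptor and acts as a cofactor. In vessels, the receptor in endothelium is known for its link to nitric oxide production and to the repair of the endothelial layer.

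The promoter windows of the members are shown because the estrogen response element is the sequence that the receptor binds. They are from RefSeq (GRCm38.p6), each 300 bases long around an annotated transcription start, 5′ to 3′ on the strand of the gene, and capitals mark GGTCA or its reverse complement TGACC. One window per gene is printed, for Esr1 and Greb1 the one at the start farther upstream.
Esr1, chr10:4611739-4612038, plus strand: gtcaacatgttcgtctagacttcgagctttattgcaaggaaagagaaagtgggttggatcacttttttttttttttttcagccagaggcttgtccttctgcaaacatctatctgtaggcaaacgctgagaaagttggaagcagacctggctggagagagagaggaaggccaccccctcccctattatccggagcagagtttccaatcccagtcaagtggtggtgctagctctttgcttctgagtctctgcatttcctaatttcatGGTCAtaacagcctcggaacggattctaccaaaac
Pgr, chr9:8899583-8899882, plus strand: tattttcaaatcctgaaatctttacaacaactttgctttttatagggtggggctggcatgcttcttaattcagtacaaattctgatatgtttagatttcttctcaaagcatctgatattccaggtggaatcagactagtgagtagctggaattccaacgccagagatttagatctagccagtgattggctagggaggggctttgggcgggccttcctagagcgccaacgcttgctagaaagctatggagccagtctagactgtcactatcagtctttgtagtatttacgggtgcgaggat
Greb1, chr12:16800837-16801136, minus strand: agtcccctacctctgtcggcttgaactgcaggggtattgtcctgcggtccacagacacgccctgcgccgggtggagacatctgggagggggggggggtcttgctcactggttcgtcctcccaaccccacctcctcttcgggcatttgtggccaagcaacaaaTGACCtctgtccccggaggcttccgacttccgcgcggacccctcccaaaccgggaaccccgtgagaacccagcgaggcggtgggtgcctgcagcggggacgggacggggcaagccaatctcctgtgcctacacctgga
The full estrogen response element, searched on both strands as GGTCA, any 3 bases and TGACC, was in none of the 5 windows that RefSeq lists for these genes (Esr1 2, Pgr 1, Greb1 2), and it was in 23 of all 32851 mouse windows (0.07%). The GGTCA arm, searched on both strands and contained in the full element, was in 40.5% of all windows. In Esr1 it began at position 16 after the upstream start, and in Greb1 it covered positions -88 to -84 before the upstream start. The other Greb1 window, chr12:16757190-16757489, held it at positions -194 and -85, and also held ACAACTTGT, a match at position -229 to ACANNNTGT, the element shared by the progesterone and glucocorticoid receptors. That element, a palindrome, was in 6.85% of all windows. The Pgr window and the second Esr1 window held none of these letters, which describes these windows only. The GC content was 46.3% in the Esr1 window printed, 43.7% in that of Pgr and 65.3% in that of Greb1, against a median of 52.7% over all windows.

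Esr1, the receptor, had log2 values of 7.52 and 9.05 in hcatTg cells, against 5.98 and 6.39 in WT cells (arrays 1 and 2 of each). The genotypes did not overlap, and the lowest hcatTg array lay 1.13 above the highest WT array. The authors' table was selected on this contrast, so nothing is read from the lack of overlap. The mean was 8.29 ± 1.08 in hcatTg and 6.19 ± 0.293 in WT (SD, n = 2 arrays each), a difference of 2.10 log2 units or 4.30-fold. In hcatTg cells 77.2% and 83.1% of all clusters lay below Esr1, against 54.2% and 54.9% in WT cells, so in WT the value was close to the middle of the array. In such bulk cultures, more cells that carry a transcript and more transcript per cell cannot be told apart.

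Pgr had log2 values of 7.69 and 10.17 in hcatTg cells, against 5.0 and 4.62 in WT cells. Both hcatTg values were above their array medians (5.40 and 6.0), and both WT values were below theirs (5.75 and 6.02). The mean was 8.93 ± 1.75 in hcatTg and 4.81 ± 0.271 in WT (SD, n = 2 each), a difference of 4.13 log2 units or 17.5-fold. This was the fourth largest difference upward among the 35557 clusters, while Greb1 ranked 22 and Esr1 ranked 70.

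Greb1 had log2 values of 6.48 and 8.61 in hcatTg cells, against 5.04 and 4.44 in WT cells. It too lay above the array medians in hcatTg and below them in WT, with 65.2% and 78.8% of clusters below it in hcatTg and 34.4% and 21.5% in WT. The mean was 7.55 ± 1.51 in hcatTg and 4.74 ± 0.424 in WT (SD, n = 2 each), a difference of 2.81 log2 units or 6.99-fold. Whether the WT signals of Pgr and Greb1 were above background was not analysed here. They were close to those of Xist in WT cells (4.71 and 4.66), a transcript of female cells. The Y-linked genes of the marker list in hcatTg cells lay from 3.57 (Eif2s3y, array 1) to 4.79 (Ddx3y, array 2), so such levels differ between probe sets. The folds of Pgr and Greb1, and their ranks by size, therefore hold for the deposited values only. They may understate the change of the transcripts.

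**Figure D1:**
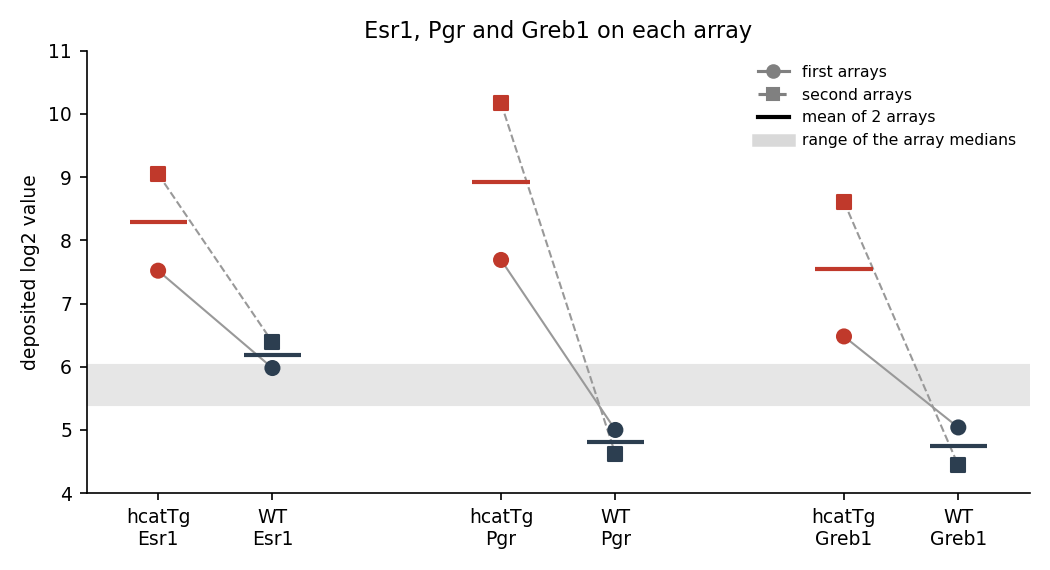
Deposited log2 values (vertical axis) of Esr1, Pgr and Greb1 in hcatTg (red) and WT (dark) cells. Circles are the first arrays, squares the second arrays, lines join arrays of a pair, bars are means of 2 arrays, and the grey band spans the 4 array medians (5.40 to 6.02). For each gene both hcatTg points lie above both WT points, and the second hcatTg array is the highest.

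No test was made on the 3 members. The authors' deposited table was chosen on this same contrast, since its smallest absolute fold in either comparison is 2.0 and each comparison sets a hcatTg array against a WT array. Its probe sets nearest to that limit among the 93 higher in hcatTg were Tgfbr2 (smaller fold 2.01) and Sh3tc1 (2.02), and the smaller folds of Esr1, Greb1 and Pgr were 2.87, 2.98 and 6.73. All 3 members were at least 2-fold higher in both pairs of the value table, which holds for 134 clusters in all (0.377% of 35557), for 178 after median centring (0.501%) and for 181 after quantile normalization (0.509%). At least 2-fold in the same direction, up or down, were 553 clusters (1.56%). The selection fixes this, and nothing is read from it. In the authors' deposited table the average signed folds were 26.9 for Pgr (rank 3 from the top), 10.5 for Greb1 (rank 10) and 4.60 for Esr1 (rank 37).

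The array pairs were those of the authors' table, whose headers give a first and a second time: hcatTg array 1 against WT array 1, and hcatTg array 2 against WT array 2. Between the first arrays, hcatTg minus WT was 1.55 for Esr1, 2.69 for Pgr and 1.44 for Greb1 (log2). Between the second arrays it was 2.66, 5.56 and 4.17 for the same genes. Receptor and targets were thus higher in both pairs, and each gene had the larger difference in the second pair. As folds of the deposited signals, Esr1 was 2.92 and 6.32 times higher in the first and second pair, Greb1 2.71 and 18 times, and Pgr 6.47 and 47.1 times. On the deposited values the difference of Greb1 was slightly below that of Esr1 in the first pair and above it in the second, while Pgr had the largest difference of the 3 in both.

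Of the 93 probe sets of the authors' table that were higher in hcatTg, 68 had a larger difference in the second pair on the deposited values, 51 after median centring and 43 after quantile normalization. By the excess of the second pair over the first (log2), Pgr ranked 3 of the 93 with 2.86, Greb1 ranked 4 with 2.73 and Esr1 ranked 15 with 1.12. By the first pair alone, Pgr ranked 13, Esr1 59 and Greb1 67 of the 93, and by the second pair alone Pgr ranked 3, Greb1 8 and Esr1 32. Of the 3 members, Greb1 therefore differed most between the pairs in its standing among the higher genes on the deposited values. The lower second WT value of Greb1 enters these ranks, and that signal is not shown to be above background.

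The second hcatTg array was above the first for all 3 members. Within hcatTg, array 2 was above array 1 by 1.53 for Esr1, 2.48 for Pgr and 2.13 for Greb1 (log2), where the median over all clusters was 0.60. Within WT, array 2 minus array 1 was 0.41 for Esr1, -0.38 for Pgr and -0.60 for Greb1, where the median over all clusters was 0.21. Since the WT signals of Pgr and Greb1 are not shown to be above background, nothing is read from the order of their WT arrays. Median centring of the arrays gave 0.92, 1.87 and 1.52 within hcatTg and 0.14, -0.66 and -0.87 within WT. The times behind the arrays run along the replicate number, so time, culture and array cannot be told apart.

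**Figure D2:**
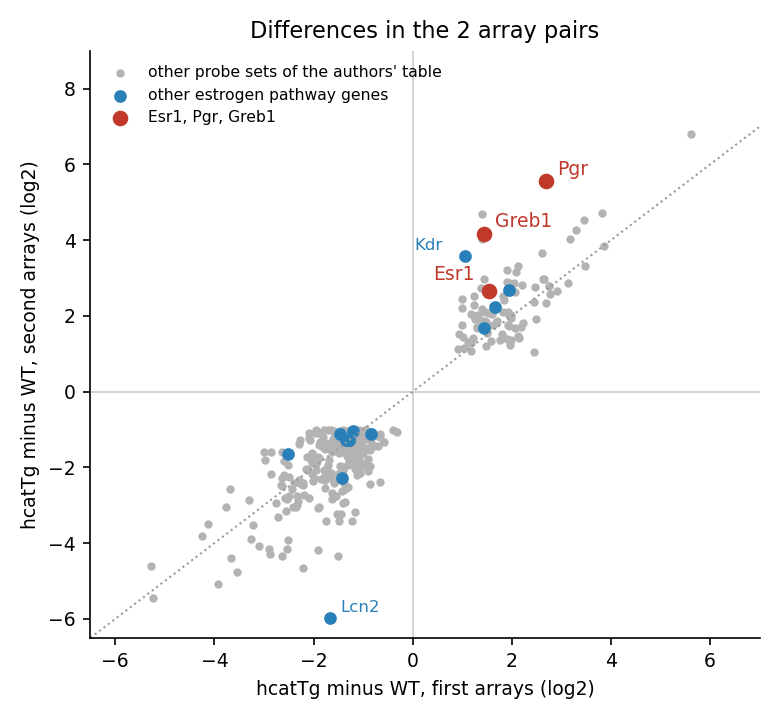
Difference of hcatTg minus WT (log2) in the first array pair (horizontal) and in the second (vertical) for probe sets of the authors' table. Esr1, Pgr and Greb1 (red) lie above the dotted line of equal differences, as do the 4 higher genes among the 13 other estrogen pathway genes (blue), and Lcn2 has the largest second difference downward.

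Scaling changed the sizes more in the first pair than in the second. The deposited arrays had not been brought to a common distribution, and the median difference over all clusters was -0.37 in the first pair and 0.01 in the second. After quantile normalization the differences in the first and second pair were 1.98 and 2.52 for Esr1, 3.30 and 5.25 for Pgr, and 2.0 and 3.86 for Greb1. The second pair kept the larger difference for each member, with an excess of 0.53 for Esr1, 1.95 for Pgr and 1.85 for Greb1, against 0.78, 2.53 and 2.40 after median centring. Scaling thus took away a larger share of the excess of Esr1, which was smaller on the deposited values (1.12, against 2.86 for Pgr and 2.73 for Greb1). Median centring takes the same amount from every gene, so there the small excess of Esr1 fixes the larger share. In log2 units quantile normalization took more from the targets than from Esr1. Nothing is read from these shares. The second hcatTg array weighed on every mean: without it the mean differences were 1.34 for Esr1, 2.89 for Pgr and 1.74 for Greb1, and without the first hcatTg array they were 2.87, 5.37 and 3.87.

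**Figure D3:**
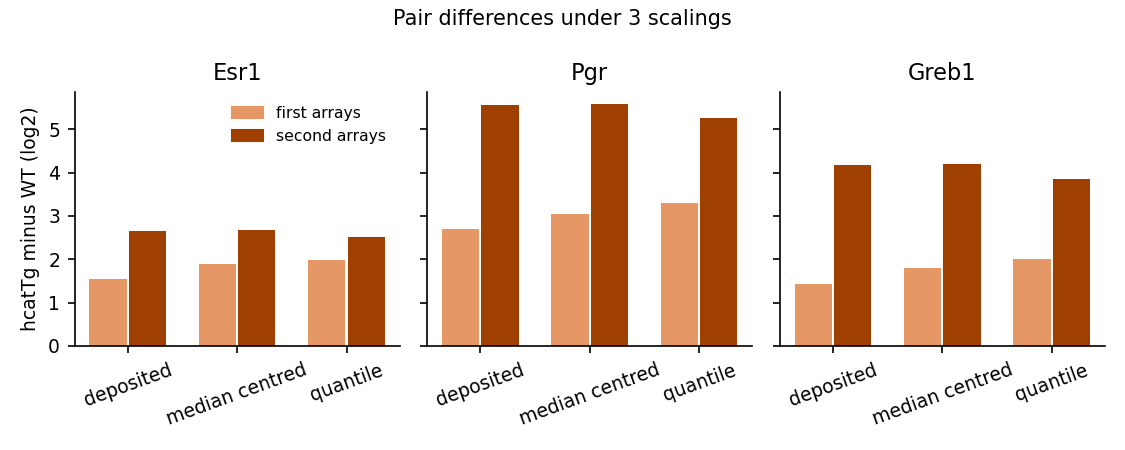
Difference of hcatTg minus WT (log2, bars from 0) in the first pair (light) and second pair (dark) of arrays, for the deposited values, after median centring and after quantile normalization. The dark bar is taller for each gene under each scaling, and for Esr1 the gap shrinks to 0.53 after quantile normalization.

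The genes whose pattern was most like that of each member were taken from the authors' table as the 5 with the smallest Euclidean distance between profiles over the 4 arrays, each profile centred on its own mean. The nearest to Esr1 was Tnfsf18, which encodes a ligand of the TNF family, at a distance of 0.08 log2 units. Its values were 6.25 and 7.68 in hcatTg and 4.67 and 5.03 in WT. Emilin2, an extracellular matrix glycoprotein gene (0.16), Slit2, a guidance ligand gene (0.30), Mpzl2, an adhesion protein gene (0.30), and Gdf10, a TGF-beta family ligand gene (0.40), followed.

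For Pgr the nearest were Tnfsf15, an endothelial cytokine gene (0.80), Npy1r, a neuropeptide Y receptor gene (0.93), Aldh1a2, a retinoic acid synthesis gene (1.15), Igfbp6 (1.27) and Pi15 (1.28). Tnfsf15 had 7.89 and 11.21 in hcatTg and 5.23 and 5.61 in WT. For Greb1 the nearest were Kdr, the main VEGF receptor gene of endothelium (0.69), Aldh1a2 (0.72), Heph, a copper-dependent ferroxidase gene (0.79), Vnn1, a pantetheinase gene (0.82), and Pir (0.86). Aldh1a2 was thus among the nearest 5 of both targets. After quantile normalization the nearest 5 of Esr1 were the same genes, with Mpzl2 first. Pgr and Greb1 each kept 4 of their 5, without Pi15 and Heph, and the nearest to Greb1 was then Aldh1a2.

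The members were not each other's nearest genes. Seen from Pgr, Greb1 ranked 7 of 397 at a distance of 1.35 and Esr1 ranked 28 at 2.21. Seen from Esr1, Greb1 ranked 59 at 1.09 and Pgr ranked 89 at 2.21. Seen from Greb1, Esr1 ranked 12 at 1.09 and Pgr ranked 24 at 1.35, so by this distance Greb1 was nearer to the receptor than to the other target. The profiles were centred but not scaled, so the distance also reflects the size of the differences (means of 2.1 for Esr1, 2.81 for Greb1 and 4.13 for Pgr). Likeness of shape alone was not analysed. The receptor and its targets shared direction in both pairs, which the selection fixes, and the profile of Esr1 was flatter than those of the targets. After quantile normalization the ranks seen from Esr1 were 51 for Greb1 and 89 for Pgr, from Pgr that of Greb1 was 8, and from Greb1 they were 11 for Esr1 and 35 for Pgr.

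**Figure D4:**
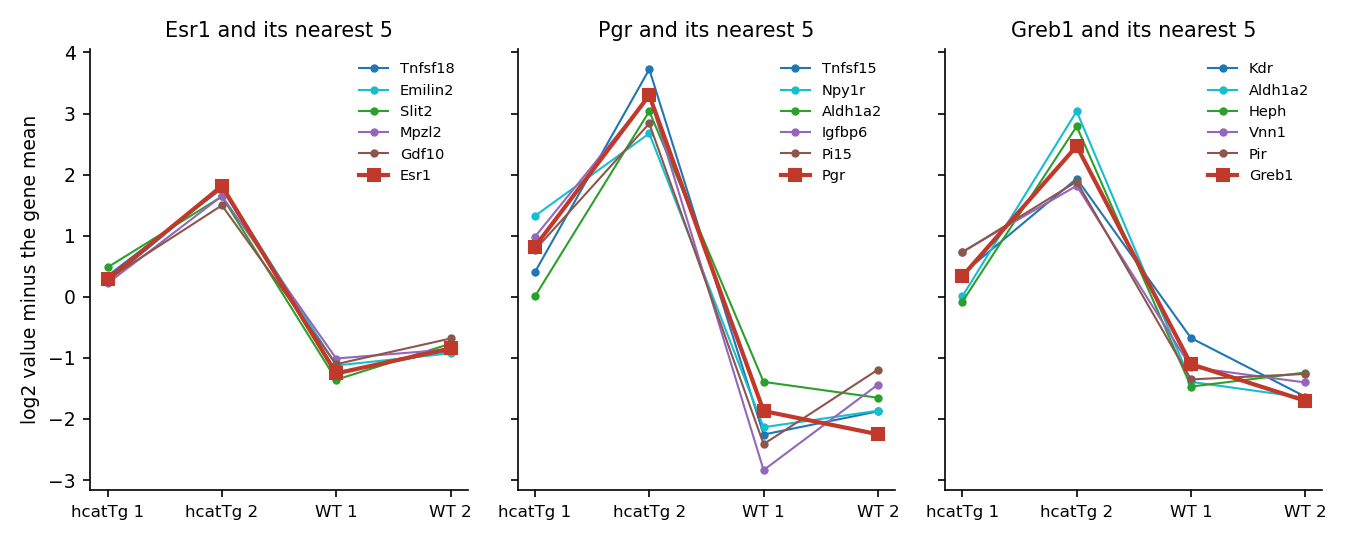
Profiles over the 4 arrays (log2 value minus the mean of the gene) of Esr1, Pgr and Greb1 (red squares), each with its nearest 5 genes of the authors' table. The Esr1 lines nearly coincide (distances of 0.08 to 0.40), while those around Pgr spread more (0.80 to 1.28), and the second WT array is the lowest point for Pgr and for Greb1.

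Other genes of the pathway were counted from lists of steroid receptors, coregulators, estrogen target genes, estrogen-responsive endothelial genes, estrogen enzymes and progesterone receptor targets. Besides the members, these hold 115 genes, of which 13 were in the authors' table, 4 higher and 9 lower in hcatTg in both pairs. Only genes of that table carry a name in the files, so the other 102 were not analysed here, among them Esr2, Gper1, the Ncoa coactivators, Nrip1, Cxcl12 and Ccnd1. The table itself holds 93 higher and 305 lower probe sets, so 23.4% were higher. The median mean difference was -1.28 over the 13 genes and -1.36 over the table. The genotypes did not overlap for 9 of the 13, and the share over all clusters was not analysed. In a table of differing genes nothing is read from such a lack of overlap, here or below. Limma on all clusters called 0 of the 13 (adjusted p at most 0.05), against 3 of all clusters (0.00844%). At an unadjusted p below 0.05 there were 8 of the 13, against 643 of all clusters (1.81%). With the array pair as a replicate block limma called 12 of the 13, against 1161 clusters (3.27%) and 378 of the 398 in the table, and with median centring added it called 0 of the 13 and 24 clusters (0.0675%). The table was selected on these arrays, so they do not count as independent evidence.

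Of the 11 steroid receptor genes on the list, those in the table were Esr1 and Pgr, both higher in hcatTg, and of the 20 coregulator genes they were Greb1 and Gata3. Gata3, whose product opens chromatin for the estrogen receptor in breast cells, had 5.34 and 6.08 in hcatTg and 6.81 and 7.20 in WT, without overlap (pair differences -1.47 and -1.11).

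The estrogen target genes of breast or uterus went both ways. Of the 39 besides Pgr and Greb1, 6 were in the table, 2 higher and 4 lower. Stc2, a secreted glycoprotein gene, had 7.41 and 8.09 in hcatTg and 5.46 and 5.41 in WT, and its mean difference was 2.32 ± 0.462 log2 units (SE, n = 2 arrays each, limma adjusted p = 0.403). With the replicate block the limma adjusted p was 4.44e-10, and 0.0556 with block and median centring. Igfbp4, a gene for a binding protein of insulin-like growth factors, had 9.87 and 11.27 in hcatTg and 8.43 and 9.60 in WT. Both genes were higher without overlap of the genotypes.

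Lower in hcatTg were the complement gene C3, the iron-siderophore carrier gene Lcn2, the kinase gene Sgk1 and the growth factor gene Vegfa. Lcn2 had 4.0 and 4.59 in hcatTg and 5.67 and 10.58 in WT, without overlap. Its mean difference was -3.82 (SE 1.21, limma adjusted p = 1.00, or 4.23e-28 with the replicate block and 0.353 with block and median centring), and its size differed widely between the pairs (-1.66 and -5.98). With the block, limma takes the spread of a gene largely from all clusters. The 4.23e-28 of Lcn2 therefore does not reflect the gap between its pairs. C3 had 7.08 and 8.92 in hcatTg and 8.50 and 11.21 in WT, with overlap. Lcn2 and C3 are both known as strongly estrogen-induced in the mouse or rat uterus. They lay opposite in direction to Pgr and Greb1, while Stc2 and Igfbp4 of the same list went with them. Since 305 of the 398 probe sets of the table were lower (76.6%), nothing is read from these directions.

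The table held 6 of the 19 estrogen-responsive endothelial genes, and 2 of them were higher and 4 lower. The list does not give the direction in which estrogen moves each gene. These counts are therefore not read as going with or against the receptor. Kdr had 6.68 and 8.24 in hcatTg and 5.63 and 4.67 in WT. Its pair differences were 1.05 and 3.57. Ptgs2, the inducible cyclooxygenase gene, was at 11.75 and 12.43 in hcatTg and 10.07 and 10.20 in WT. The adhesion gene Icam1 (mean difference -1.12) and the chemokine gene Ccl2 (-2.07) were lower without overlap. Adamts1, a matrix protease gene, had 6.73 and 8.09 in hcatTg and 8.01 and 9.38 in WT. Vegfa had 8.33 and 9.20 in hcatTg and 9.18 and 10.31 in WT. For both, the genotypes overlapped although each pair was lower. Of the progesterone receptor targets only Fst, the activin antagonist gene, was in the table. It had 5.72 and 7.65 in hcatTg and 7.05 and 8.92 in WT, with overlap. None of the 16 genes of estrogen synthesis and breakdown was in the table.

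**Figure D5:**
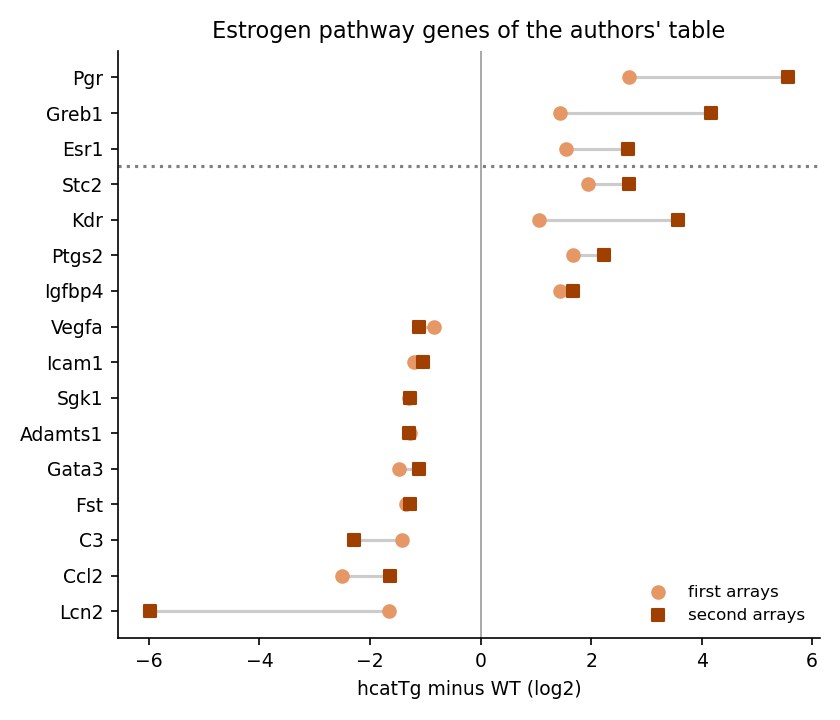
Difference of hcatTg minus WT (log2) in the first pair (circles) and second pair (squares) of arrays for Esr1, Pgr and Greb1 (above the dotted line) and for the 13 other pathway genes of the authors' table. Stc2, Kdr, Ptgs2 and Igfbp4 lie to the right of 0 in both pairs, the other 9 lie to the left, and Lcn2 shows the widest gap between pairs (-1.66 and -5.98).

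Sex-linked genes separated the genotypes, and markers of other cells in the authors' table, which holds only genes that differ, went both ways. Xist, the RNA that silences an X chromosome in female cells, had 10.33 and 11.45 in hcatTg and 4.71 and 4.66 in WT, and all 4 Y-linked genes of the list were lower in hcatTg, Ddx3y with 3.85 and 4.79 in hcatTg and 9.09 and 10.24 in WT. Genotype and sex therefore cannot be told apart for Esr1, Pgr or Greb1. Of 8 smooth muscle and mural markers 5 were in the table, all lower, as were 305 of its 398 probe sets (76.6%), with a mean log2 level over them of 5.67 and 7.02 in hcatTg and 7.28 and 9.33 in WT. Of 9 mesothelial and epithelial markers 4 were in it, 2 higher and 2 lower, with mean levels of 7.96 and 7.65 in hcatTg and 7.53 and 7.46 in WT. Of 8 fibroblast markers only Fbln1 was in it (6.69 and 7.74 in hcatTg, 8.24 and 10.50 in WT), and of 5 leukocyte markers 3 were, 1 higher and 2 lower, with mean levels of 5.50 and 6.19 in hcatTg and 5.94 and 6.93 in WT. Of 12 endothelial markers Kdr and Eng were in it. Eng lay at 8.40 and 8.71 in hcatTg and 9.57 and 10.15 in WT, while Kdr in WT was below the array medians. The part of cell makeup in the differences of Esr1, Pgr and Greb1 was not tested.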

How the data were processed

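Total RNA of 4 samples (2 hcatTg, 2 WT) was hybridised to Mouse Gene 1.0 ST arrays. The deposited value table holds log2 values, made with Affymetrix Expression Console per the submitters' processing notes. The sources used here give no version, annotation or build. A log2 scale was inferred, since the second-array difference matched the log2 of the authors' second fold within 9e-05. The authors' table gives, per the file headers, log2 RMA signals of the first arrays, a linear ratio (not used), and signed folds, which are treated as a score and are negative for WT over hcatTg. Its first-time folds differ from the value table by a median of 0.129 (log2). Its first-array signals were higher than in the value table for each member. For Esr1 they were 8.09 in hcatTg and 6.57 in WT, against 7.52 and 5.98. The differences between arrays within a genotype therefore hold for the value table only. Gene names come only from this table, 385 of its 398 accessions matching RefSeq.

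Limma 3.58.1 (R 4.3.3; lmFit, eBayes, Benjamini-Hochberg, threshold 0.05) was fitted to all 35557 clusters. On simulated data for this comparison and all clusters it recovered 0% of clusters changed by 2 log2 units, 97% of those changed by 4 and 100% of those changed by 6. The false calls were 0, 14 and 10. The simulated noise was independent between arrays, with no pair effect and no array offset, so these shares do not carry over to the real arrays. The members were left untested because the authors' table was selected on the same contrast. The replicate numbers pair the arrays as the authors' table does, and across clusters the deviations of paired arrays from the mean of their genotype had r = 0.689. One item is not reported here. Genes named with values were the members, the 5 nearest profiles of each, and all pathway list genes in the authors' table. Some marker genes, Tgfbr2 and Sh3tc1 near the fold limit, and the genes under other observations were also named. The remaining markers in the table enter counts and means only. Members and lists were chosen with earlier results of these data known. Alternatives were median centring, quantile normalization, the authors' folds, each array left out, the block, a level filter and an intensity trend. Arrays have no read depth, so precision is limited by how many there are.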

Additional observations from a re-analysis of the deposited data

How the results depend on the processing

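The mean differences of the members kept their direction under every alternative run: 2.09 to 2.29 for Esr1, 4.15 to 4.31 for Pgr and 2.87 to 2.99 for Greb1 with the authors' folds, median centring or quantile normalization, and 1.34 to 2.87, 2.89 to 5.37 and 1.74 to 3.87 leaving out each array in turn. The count of clusters at least 2-fold in the same direction in both pairs was 553, of which 134 were higher, 445 with centred medians (178 higher), 463 with quantile normalization (181 higher), and 1688 at 1.5-fold. The limma count of 3 was not stable, and the cause was not tested. Median centring gave 0 and quantile normalization gave 0 (with 975 and 1253 clusters under an unadjusted p of 0.05). It was 2 without clusters below the median level, 42 with an intensity trend, 1161 with the replicate block and 24 with the replicate block and median centring. Leaving out each array gave 0 to 192: 0 without the first and 0 without the second hcatTg array (440 and 1340 under an unadjusted p of 0.05), 103 without WT replicate 1 and 192 without WT replicate 2, the lone array being assumed to vary like the other group. Settings chosen after seeing the data left out 6636 clusters with identifiers lower than any the authors named, which gave 52 by limma, 1494 with the block and median centring over all clusters, and 454 by the 2-fold rule. The distance ranks and the counts of larger second differences under other scalings were also added after seeing the data.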

Other observations

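Further genes of hormone signalling outside the lists, named after their values were seen, are given as values with no test. Vdr, the vitamin D receptor gene and another nuclear receptor, had log2 values of 5.11 and 5.86 in hcatTg cells and 6.59 and 8.18 in WT cells. Akr1c14, which encodes a steroid dehydrogenase of rodents, had 4.60 and 5.98 in hcatTg and 5.68 and 6.99 in WT, so its genotypes overlapped although each pair was lower (-1.08 and -1.01). Inhbb, which encodes the beta B subunit of inhibin and activin, had 7.66 and 9.50 in hcatTg and 5.73 and 6.64 in WT, higher in both pairs (1.93 and 2.86). Fst, the gene of the protein that binds activin, was lower in both pairs, with overlap of the genotypes. A link between Inhbb and Fst was not tested.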
